A study of Mus musculus with 5 samples.

Results

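The genes that set entry into S phase in G1 were taken here as 10 genes: the D cyclins Ccnd1, Ccnd2 and Ccnd3, the kinases Cdk4 and Cdk6, the CIP/KIP inhibitors Cdkn1a, Cdkn1b and Cdkn1c, and the INK4 genes Cdkn2a and Cdkn2b. A peak was assigned to a gene if its centre lay in the gene body or within 10 kb of it, or if the nearest transcription start of any protein-coding gene was that gene's. In this way 28 of 21270 SOX11 peaks and 3 of 2669 SOX4 peaks were assigned to the 10 genes.

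Binding was mapped by ChIP-seq in primary mouse keratinocytes from Krt14-Cre;Sox11fl/fl;Sox4fl/fl newborns (dcKO), in which a Cre driven by Krt14 deletes both genes in the epidermis. Their labels give a mixed 129SvEx:C57BL/6 background, and the study's methods add that the Krt14-Cre line came from FVB/N mice and that the floxed stock was also Sox12-/-; whether these cells still were is not given in the sources used here. These cells carried the lentiviral vector pINDUCER21 with FLAG-tagged Sox11 or Sox4 and were given doxycycline for 1 day before fixation, and chromatin was precipitated with an antibody against FLAG. Each factor had 2 replicates, which the authors merged into 1 list, and the 1 control library, named input in its title and IgG in its antibody field, has no list used here. The tagged factors were induced from the vector in null cells, so the peaks are those of induced protein and not of endogenous SOX11 or SOX4. How the induced level compares with the endogenous one is not given in the sources used here. Since the lists hold binding and not expression, keratinocyte markers could not be checked. For each peak the lists give a chromosome, a start and an end in the mouse genome mm9, with no height, score or depth, so no spread between replicates can be given and no test was made. Coordinates are counted from 1 and sequences are of the plus strand.

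D cyclins bind CDK4 and CDK6, and the active kinases phosphorylate the retinoblastoma protein, which releases E2F factors and lets the cell copy its DNA. INK4 proteins bind CDK4 and CDK6 and keep cyclin D away, whereas CIP/KIP proteins bind cyclin-CDK complexes and mainly restrain CDK2. In the epidermis, basal keratinocytes cycle and leave the cycle as they differentiate, and the INK4 locus is known for its rising activity in cultured keratinocytes that stop dividing.

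Of the 28 SOX11 peaks, 3 overlapped a SOX4 peak, and these were all 3 SOX4 peaks of the 10 genes, found at Cdk6, Cdkn2a and Cdkn2b. That is 10.7% of the 28 (95% Wilson interval 3.71 to 27.2%), beside 11.9% of the whole SOX11 list, and 3 of 3 SOX4 peaks, beside 94.5% of the whole SOX4 list, so the overlap stood at the rate of the lists. Each of the 3 regions lay between protein-coding genes. They are shown because they are the places where both tagged factors were listed, with the SOX core (CATTGT or CTTTGT, on either strand) in capitals. At Cdkn2a the lists shared just 46 bp, the SOX11 peak held no SOX core, and the core of the SOX4 peak lay outside the SOX11 peak, so a window of 30 bases from the SOX4 peak is given as well.
Cdk6 shared peak, chr5:3152463-3152720: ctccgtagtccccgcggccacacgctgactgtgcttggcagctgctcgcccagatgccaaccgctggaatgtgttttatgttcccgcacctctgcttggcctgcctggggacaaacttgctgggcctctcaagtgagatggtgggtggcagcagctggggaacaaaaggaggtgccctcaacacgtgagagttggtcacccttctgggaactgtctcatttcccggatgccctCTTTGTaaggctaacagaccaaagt
Cdkn2b shared peak, chr4:89141714-89141971: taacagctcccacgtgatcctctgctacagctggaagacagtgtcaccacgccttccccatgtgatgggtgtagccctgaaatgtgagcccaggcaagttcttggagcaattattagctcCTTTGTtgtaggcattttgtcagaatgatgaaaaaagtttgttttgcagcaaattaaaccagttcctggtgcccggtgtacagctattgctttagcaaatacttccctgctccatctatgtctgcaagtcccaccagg
Cdkn2a SOX11 peak, chr4:88881093-88881350: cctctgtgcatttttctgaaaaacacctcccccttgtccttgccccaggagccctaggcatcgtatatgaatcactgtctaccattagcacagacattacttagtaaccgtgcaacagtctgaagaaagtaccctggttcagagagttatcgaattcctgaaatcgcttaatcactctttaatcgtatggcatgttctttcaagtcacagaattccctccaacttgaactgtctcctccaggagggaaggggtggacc
Cdkn2a SOX4 window, chr4:88881434-88881463: ggacattggtgcCATTGTtatgtctttggt

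For Ccnd3, Cdk4 and the CIP/KIP genes, the SOX11 peak of each is shown, so that peaks with and without the SOX core can be compared. The Cdk4 peak reached into a UTR and is given as a window of 30 bases around the core nearest its centre. Those of Ccnd3, Cdkn1a and Cdkn1c held no SOX core and therefore have no capitals. In the annotation, the Ccnd3 peak lay in an intron of that gene, the Cdk4 peak in an exon and the Cdkn1c peak in an intron of Kcnq1. Those of Cdkn1a and Cdkn1b lay between genes, which here and below means between protein-coding genes.
Ccnd3, chr17:47644991-47645248: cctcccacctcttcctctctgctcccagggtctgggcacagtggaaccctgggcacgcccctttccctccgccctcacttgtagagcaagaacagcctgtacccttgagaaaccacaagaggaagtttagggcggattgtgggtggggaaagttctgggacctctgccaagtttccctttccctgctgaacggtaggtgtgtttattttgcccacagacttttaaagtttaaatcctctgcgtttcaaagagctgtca
Cdk4 window, chr10:126501191-126501220: gtgcaggagttcCTTTGTtaccgccgggtc
Cdkn1a, chr17:29215922-29216179: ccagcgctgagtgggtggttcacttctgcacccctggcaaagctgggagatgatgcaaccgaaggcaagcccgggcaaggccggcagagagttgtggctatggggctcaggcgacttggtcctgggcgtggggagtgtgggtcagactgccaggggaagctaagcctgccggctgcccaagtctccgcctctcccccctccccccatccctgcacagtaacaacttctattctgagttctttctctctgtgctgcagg
Cdkn1b, chr6:134878443-134878700: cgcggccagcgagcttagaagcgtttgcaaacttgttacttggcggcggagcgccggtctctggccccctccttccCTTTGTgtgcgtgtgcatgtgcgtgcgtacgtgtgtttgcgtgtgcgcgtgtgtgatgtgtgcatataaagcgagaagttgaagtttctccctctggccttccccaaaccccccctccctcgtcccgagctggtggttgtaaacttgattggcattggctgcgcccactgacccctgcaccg
Cdkn1c, chr7:150541831-150542088: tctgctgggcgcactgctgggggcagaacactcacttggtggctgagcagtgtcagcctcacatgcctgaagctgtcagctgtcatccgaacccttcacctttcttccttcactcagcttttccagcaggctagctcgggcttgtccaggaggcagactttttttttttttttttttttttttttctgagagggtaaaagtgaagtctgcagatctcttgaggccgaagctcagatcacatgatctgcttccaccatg

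A SOX11 peak was assigned to 9 of the 10 genes, Ccnd2 being the exception, where 57.3% of 22372 protein-coding genes had one by the same rule. With the gene body and 10 kb around it alone, 5 of the 10 had a SOX11 peak, against 50.7% of all genes, so near the genes themselves the count stood close to the background. A SOX4 peak was assigned to 3 of the 10, against 13.1% of all genes, and none had one in the gene body or within 10 kb, against 10.2%. The median number of SOX11 peaks was 1 per gene for the 10 genes and for all genes, while the mean was 2.8 against 1.24. The peaks were unevenly spread: Ccnd1 and Cdkn2b had 7 each, a number reached by 1.89% of all genes, Cdk6 had 6 and Cdkn2a 3, and the remaining 5 bound genes had 1 each.

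**Figure D1:**
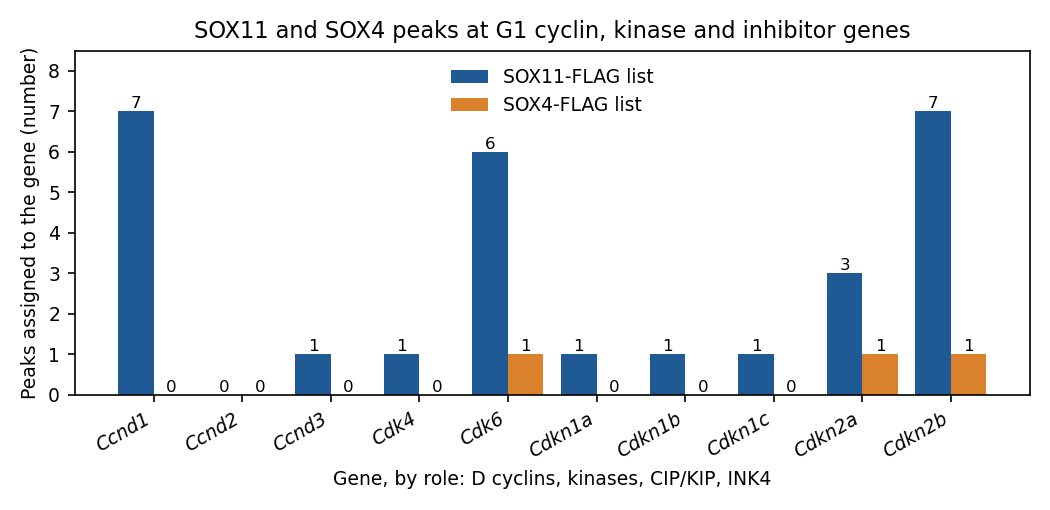
Number of peaks assigned to each gene (vertical axis) in the SOX11-FLAG list (blue) and the SOX4-FLAG list (orange), with genes in order of role along the horizontal axis. Ccnd1 and Cdkn2b had 7 SOX11 peaks each and Cdk6 had 6, and SOX4 peaks stood at Cdk6, Cdkn2a and Cdkn2b, 1 each.

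Among the D cyclins, which activate CDK4 and CDK6, most SOX11 peaks were at Ccnd1. Its 7 peaks all lay upstream of the start, between 32 and 167 kb away in the stretch before the neighbouring gene Tpcn2, whose start is 344 kb from that of Ccnd1. The gene body and 10 kb around it were free of peaks. A pair of them, numbers 4225 and 8054 of the list, stood 3.23 kb apart, and 6 of the 7 held a SOX core, 4 an AP-1 core and 3 both. A SOX core was in 58.5% of the whole SOX11 list and in 64.2% of its peaks between genes. For AP-1 these shares were 28.5% and 38.2%, and for both cores 17.2% and 23.3%. The counts at Ccnd1 were not tested against them. No SOX4 peak was assigned to Ccnd1, and the nearest one was 1139 kb from its start.

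Ccnd2 had no peak in either list. The SOX11 peak nearest to its start, chr6:127059526-127059783, number 13333 of the list, was 41.4 kb away in the promoter of the next gene, 9630033F20Rik. The nearest SOX4 peak was at 167 kb. Ccnd3 had 1 SOX11 peak, number 12827, in an intron 3.12 kb downstream of its nearest start, with neither a SOX nor an AP-1 core. The D cyclins thus had 7, 0 and 1 SOX11 peaks, and none of them had a SOX4 peak.

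Cdk4 and Cdk6, the kinases that the D cyclins activate, differed in where their peaks lay. The only SOX11 peak of Cdk4, number 3897, was centred 0.261 kb downstream of the nearest of its 4 annotated starts, in an exon, within a UTR, and held 2 SOX cores. Cdk4 lies among close neighbours, and just 5.21 kb of sequence are nearer to its starts than to any other gene's. Cdk6, by contrast, is annotated over 179 kb and is the gene nearest the beginning of the sequenced part of chromosome 5.

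At Cdk6, 4 SOX11 peaks lay upstream, at 42.5, 53.8, 191 and 206 kb from the start, and 2 in introns, 101 and 158 kb downstream of it. The intronic peaks belonged to Cdk6 by position, while the start nearest to them was that of Gm17590, a gene annotated within Cdk6. The peak at 191 kb, number 860, stood earliest in the SOX11 list of all 28. It was covered in full by SOX4 peak number 428, with 24 bp between the centres. The intronic peak at 158 kb was number 2068 of the list and held both a SOX and an AP-1 core, whereas the peak at 206 kb, number 21230, stood close to the end of the list and held neither.

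**Figure D2:**
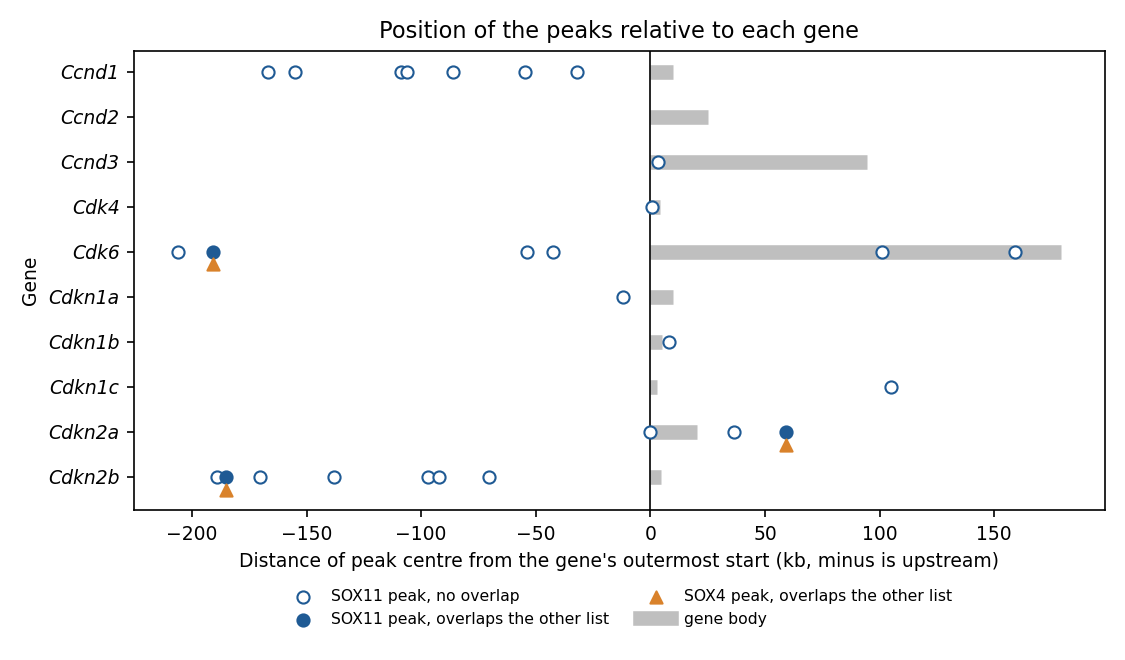
Distance of each peak centre from the gene's outermost annotated start in kb (horizontal axis, minus is upstream) for the 10 genes, with gene bodies in grey, SOX11 peaks as circles (filled where a SOX4 peak overlaps) and SOX4 peaks as orange triangles. The peaks of Ccnd1 and Cdkn2b all lie upstream, from 32 to 167 kb and from 70.4 to 189 kb, and those of Cdk6 lie on both sides of its start.

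The CIP/KIP genes Cdkn1a, Cdkn1b and Cdkn1c, which encode p21, p27 and p57, had 1 SOX11 peak each and no SOX4 peak. That of Cdkn1a, the inhibitor induced by p53, was number 6739, between genes and 11.9 kb upstream of the start, just outside the 10 kb window, and it counted through its nearest start. That of Cdkn1b was number 3171, 3.04 kb past the end of the gene and so just inside the window, and was the only one of the 3 with a SOX core. None of the 3 held an AP-1 core.

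For Cdkn1c, an imprinted gene, the assigned peak was number 13135, in an intron of the neighbouring Kcnq1 and 105 kb from the start of Cdkn1c. A nearer SOX11 peak, chr7:150659574-150659831, was 12.7 kb from that start but lay in the promoter of Slc22a18 and was assigned to that gene. The nearest SOX4 peaks were 58.1 kb from the start of Cdkn1a, 354 kb from that of Cdkn1b and 339.9 kb from that of Cdkn1c. Of the CIP/KIP genes, then, Cdkn1b alone had a SOX11 peak within 10 kb of its body, and none had one in its promoter, the stretch that begins 1 kb before a start and ends 100 bp after it.

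Cdkn2a encodes p16INK4A and, from another start and reading frame, p19ARF, and neighbours Cdkn2b, which encodes p15INK4B, at 16.4 kb between their nearest starts. The locus as a whole had 10 SOX11 peaks and 2 SOX4 peaks. At Cdkn2a, SOX11 peak number 15990 was centred 0.063 kb upstream of the outermost start, the one from which p19ARF is read. It was the only promoter peak among the 28. Its GC content of 76.4% was the highest of them, against a median of 52.1%, and it held an E2F core and 2 GC boxes (GGGCGG) but neither a SOX nor an AP-1 core. The others of Cdkn2a lay downstream of the gene at 24.2 and 46.9 kb from its nearest start. The nearer of these, number 17272, held 2 AP-1 cores and lay within Gm12606, annotated as a processed transcript, and the farther was the shared peak with 46 bp of overlap and 253 bp between the centres.

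Cdkn2b had 7 SOX11 peaks, all upstream at 70.4 to 189 kb from its start, on the side of Dmrta1, whose start is 398 kb away. Of these, 4 lay within the annotated long noncoding RNA genes Gm12609 and Gm12610, with 2 in each. Neighbouring peaks stood 3.93 kb apart at the far end, where 1 of the pair, number 11941, was covered in full by SOX4 peak number 2072 with 8 bp between the centres. A SOX core was found in 3 of the 7, an AP-1 core in 2, both in 1 and neither in 3. At Ccnd1, with as many peaks, none lacked both cores. Neither core was in 30.2% of the whole SOX11 list and in 20.9% of its peaks between genes. Of those peaks between genes, 64.2% held a SOX core, 38.2% an AP-1 core and 23.3% both. The difference between Cdkn2b and Ccnd1 was not tested.

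Positions in the list also differed between these genes. The order of the deposited list is not explained in the sources used here, so a position is only a place in that order. The peaks of Ccnd1 had a median position of 24.1% from the top (17.4 to 78.9%), those of Cdkn2b 69% (27.6 to 86.8%), those of Cdkn2a 75.2% (67.2 to 81.2%) and those of Cdk6 57.3% (4.04 to 99.8%). The ranges of Ccnd1 and Cdkn2b overlapped. Over all 28 peaks the median was 58.2%, past the middle of the list, with 2 in the first 10% and 8, or 28.6%, in the first 25%. The SOX4 peaks were numbers 428, 2072 and 2479 of the SOX4 list.

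**Figure D3:**
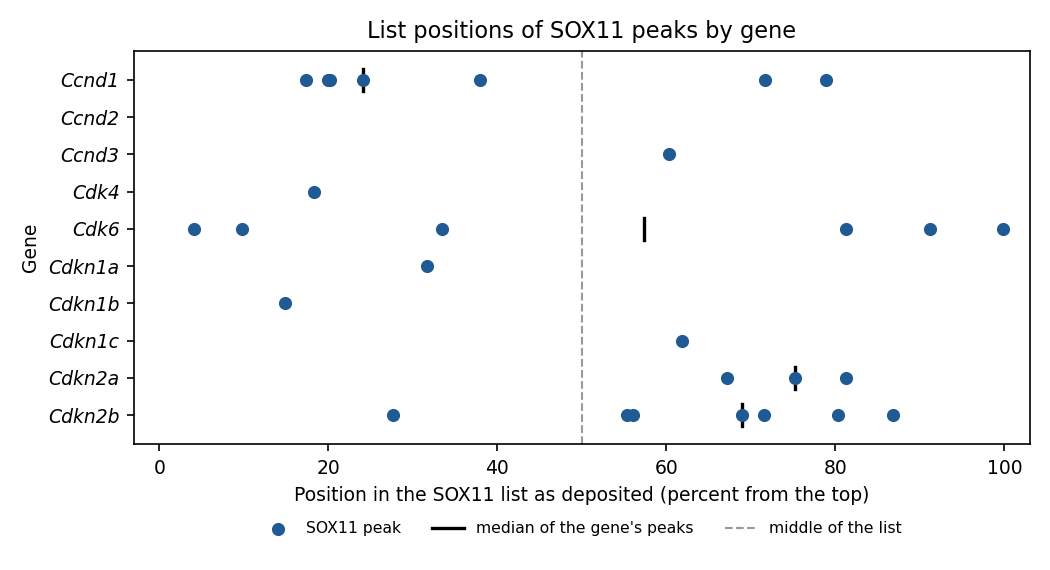
Position of each SOX11 peak in the deposited list, in percent from the top (horizontal axis), for the 10 genes; black bars are medians for genes with more than 1 peak, and the dashed line is the middle of the list. The median was 24.1% for Ccnd1 and 69% for Cdkn2b, with overlapping ranges, and the peaks of Cdk6 run from 4.04 to 99.8%.

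The peaks of Ccnd1, Cdk6 and Cdkn2b lay far from starts, and they set the pooled distances of the 10 genes. Over all 28 peaks the median distance to the nearest start was 78.1 kb, against 14.1 kb for the whole list, and 11 of the 28 (39.3%) were over 100 kb away, against 12.6%. The 20 peaks of these 3 genes had a median of 102 kb, with 10 over 100 kb, while the 8 peaks of the other 6 bound genes had a median of 10.0 kb, below that of the list, with 1 over 100 kb. Between genes lay 22 peaks, or 78.6% (95% Wilson interval 60.5 to 89.8%), against 40.5% of the list, while 1, or 3.57% (0.633 to 17.7%), lay in a promoter, against 21.8%. Of the 22, 18 belonged to the same 3 genes. Since only protein-coding genes were counted for this class, it includes the peaks within noncoding genes at Cdkn2a and Cdkn2b. With promoters of 1 kb on each side of a start the Cdk4 peak counted too, giving 2 peaks, or 7.14%, against 27.7% of the list. By its construction the rule gives distant peaks to genes far from their neighbours, and the median stretch of sequence nearest to a gene's own starts was 96 kb for the 10 genes and 46.2 kb for all genes; its part in the distances was not tested. Intervals cover counting error over listed peaks, which are not replicates.

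The sequence nearest to the starts of the 10 genes came to 1.27 Mb and held 26 SOX11 peaks, which is 20.5 per Mb (exact Poisson 95% interval 13.4 to 30.1) beside 8.32 per Mb over the whole sequenced genome. Cdkn2b had 44.9 per Mb (18 to 92.5) and Ccnd1 38 per Mb (15.3 to 78.2), with 7 of the 26 peaks each, so these 2 genes weigh heavily in the pooled density. They are given because they had most peaks. Their intervals and the pooled one treat peaks as independent although some stood under 5 kb apart. All 3 intervals therefore describe counting error and are no test against the genome's density. For Cdk6, the density of 9.79 per Mb (2.67 to 25.1) was near that of the genome, with 4 peaks in a long stretch of 409 kb. The interval of Ccnd2, from 0 to 59.4 per Mb, over its 62.1 kb held the genome's density. For SOX4 the density was 2.37 per Mb (0.488 to 6.92), beside 1.04.

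**Figure D4:**
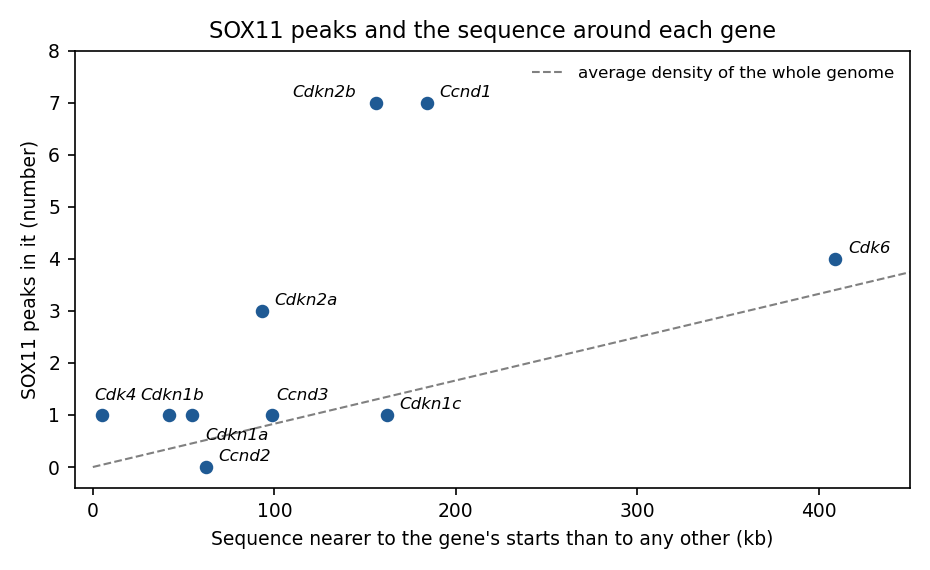
SOX11 peaks (vertical axis) in the sequence nearer to a gene's starts than to any other protein-coding start (horizontal axis, kb), with the dashed line at the density of the whole genome, 8.32 per Mb. Ccnd1 and Cdkn2b lie above the line with 7 peaks in 184 and 156 kb, and Cdk6 lies close to it with 4 in 409 kb.

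Core sequences were searched exactly, on both strands, over the whole peak: CATTGT or CTTTGT for SOX, TGAGTCA or TGACTCA for AP-1, GGAATG for TEAD, GGGCGG for the GC box, and for E2F TTT, then 2 bases that are each C or G, then CGC. A match says only that these letters are in the peak. The SOX core was in 14 of the 28 SOX11 peaks, or 50% (32.6 to 67.4%), against 58.5% of the whole list and 32.1% of the same peaks shifted 2 kb downstream. The AP-1 core was in 9, or 32.1% (17.9 to 50.7%), against 28.5% of the list and 7.14% after the shift. Since most of these peaks lie between genes, the shares in such peaks are nearer counterparts: 50% against 64.2% for SOX and 36.4% against 38.2% for AP-1. TEAD cores were in 17.9%, against 22.8% of the list, GC boxes in 14.3%, against 24.7%, and the E2F core in 3.57%, against 1.29%. Between genes these shares were 18.2% against 27.6% for TEAD, 9.09% against 10.0% for the GC box and 0 of 22 peaks against 0.441% for E2F. With the 28 peaks shifted 2 kb downstream, the TEAD core was in 14.3%, the GC box in 3.57% and the E2F core in 0%. Each interval of the 28 peaks held the share of the whole list.

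**Figure D5:**
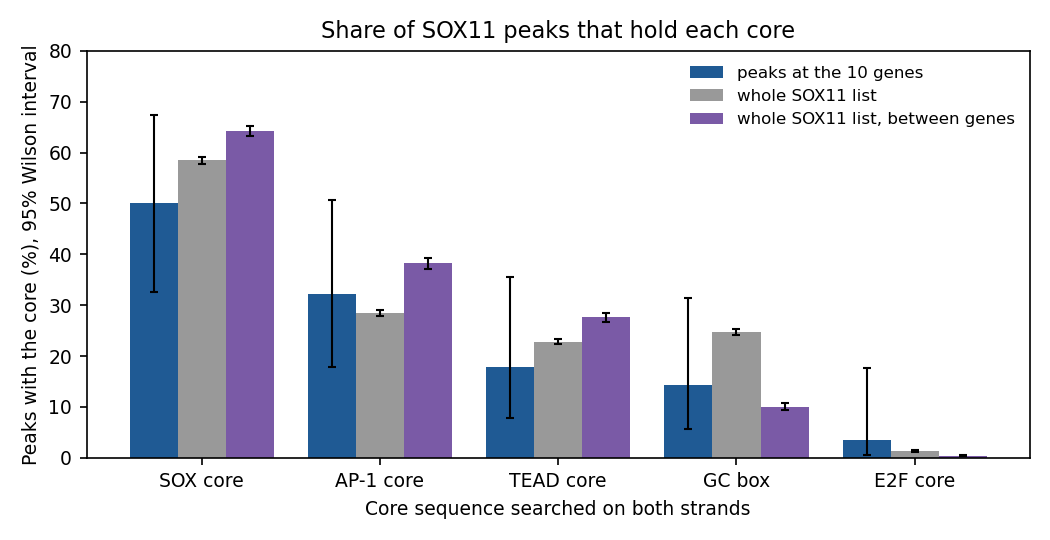
Percent of SOX11 peaks that hold each core (vertical axis, bars with 95% Wilson intervals) for the 28 peaks of the 10 genes (blue), the whole list (grey) and the peaks of the list between genes (purple). The SOX core was in 50% of the 28 peaks and 58.5% of the list, and the interval of the 28 peaks, 32.6 to 67.4%, holds both other shares.

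Both a SOX and an AP-1 core were in 5 of the 28 peaks, 17.9% against 17.2% of the list, and neither was in 10, 35.7% against 30.2%. Between genes the shares were 18.2% against 23.3% for both cores and 31.8% (16.4 to 52.7%) against 20.9% for neither. Of the 5, 3 were at Ccnd1, 1 at Cdk6 and 1 at Cdkn2b. The midpoints of the closest SOX and AP-1 cores were 36.5 bp apart in peak number 4286 of Ccnd1, 167 kb upstream, and also 36.5 bp apart in peak number 5881 of Cdkn2b, 189 kb upstream, while the others had 57.5 to 83.5 bp. The stretches that hold these closest pairs, and a window around the E2F core of the Cdkn2a promoter peak, were chosen after their values were seen and are shown with the cores in capitals; ACAATG and ACAAAG are the SOX core, and GCGGGAAA the E2F core, read from the other strand. Both paired stretches lie between genes, and the promoter window lies upstream of the p19ARF start.
Ccnd1 pair, chr7:152292250-152292312: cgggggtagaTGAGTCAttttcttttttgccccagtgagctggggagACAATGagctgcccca
Cdkn2b pair, chr4:89145738-89145800: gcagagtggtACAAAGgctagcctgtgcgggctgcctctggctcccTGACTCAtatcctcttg
Cdkn2a promoter, chr4:88940604-88940633: tccccagtcgcGCGGGAAAgcttcccagag

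The rest of the pathway was described from a list of 32 genes outside the 10. Of these, 29 had a SOX11 peak (90.6%), against 57.3% of all genes, and all 29 had one in the gene body or within 10 kb, against 50.7%. In the first 50% of the SOX11 list 15 (46.9%) had one, against 35.5% of all genes. A SOX4 peak was assigned to 10 (31.2%), against 13.1% of all genes, but in the first 50% of the SOX4 list just 2 (6.25%) had one, against 7.1% of all genes, so the excess was not present there. The genes without a SOX11 peak were the cyclin gene Ccna1, the INK4 gene Cdkn2d and Tfdp1, the partner of E2F factors. Peaks in a gene's own promoter were found at 18 of the 32 (56.2%) for SOX11, against 21.9% of all protein-coding genes and 1 of the 10. With promoters of 1 kb on each side these were 24 (75%), 27.5% and 2 of the 10. By group, 6 of 8 later cyclins and kinases, 2 of 3 pocket proteins, 4 of 10 E2F factors and partners, 6 of 9 upstream regulators and none of the 2 other INK4 genes had a SOX11 peak in their own promoter.

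SOX4 peaks lay in the promoters of Ccne1 and Ccne2, the E cyclins that activate CDK2, of the E2F gene E2f3, and of Trp53, which encodes p53 and shares this promoter with Wrap53. They were centred 0.01, 0.753, 0.693 and 0.057 kb from the nearest start. Other SOX4 peaks also lay close to a start but outside the promoter class, in an exon of E2f5 at 0.203 kb and in an intron of Cdk7 at 0.344 kb. The product of Cdk7 is part of the kinase that activates CDKs. Further SOX4 peaks lay between genes, 35.9 kb from the start of E2f8 and 10.9 kb from that of Mdm2, the ubiquitin ligase of p53. At Rb1, which encodes the retinoblastoma protein, the SOX4 peak was 87.9 kb from the start, in the promoter of Lpar6. At E2f4 it was 8.21 kb away, in the promoter of 4931428F04Rik. By list number, the SOX4 peak of Trp53 was the earliest of these 10, at 961, and that of Cdk7 the latest, at 2509.

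Other genes reached counts as high as those of the 10. In all, 421 genes (1.88%) had at least as many SOX11 and SOX4 peaks as Ccnd1, and 298 (1.33%) at least as many as Cdkn2b. Those with most were Gm20388, with 98 SOX11 peaks over an annotated body of 4435 kb, Fgfr2, with 51 over an annotated body of 3009 kb, Myc, with 30, Epha4, with 19, and Actl7b, with 18. The rule counts every peak in an annotated body, also where the start of another gene is nearer. The sequence nearest to their own starts was just 0.0215 kb for Gm20388 and 466 kb for Fgfr2, so their counts include peaks across such long bodies.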

How the data were processed

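The deposited values are start and end coordinates of peaks, 1 list per factor, each made by the authors from both replicates. For this the authors aligned single-end reads to mm9 with Bowtie2 and took out duplicates (Picard) as well as unmapped, non-nuclear and low-quality reads. HOMER in its factor style then called the peaks, and bedtools subtracted the blacklist. Tool versions, thresholds and the control used by HOMER are not given in the sources used here, and the depth is unknown.

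Starts were read as 0-based. Genes and sequence came from GENCODE M1 and the mm9 genome, with starts of protein-coding transcripts only. A peak was placed by its centre, in order of promoter (1 kb before to 100 bp after a start), exon, intron and between genes. Only protein-coding genes were used for these classes, so a peak within a noncoding gene can count as between genes. An overlap was at least 1 bp. The sequence nearest to a gene's starts excludes unsequenced bases. Shares carry 95% Wilson intervals and densities exact Poisson intervals. Python 3.11.15, numpy 2.4.6, scipy 1.17.1 and matplotlib 3.10.9 were used, and assignment, overlap, stretch and core search were tested on simulated data.

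The members and lists were chosen with earlier results of these data known. All 10 genes are named, with pathway genes that had a SOX4 peak and the 5 other genes with most peaks. The sequences are the peaks found in both lists and the earliest-listed peak of each other gene. That of Ccnd1 is not reported here. A further 3 stretches, at Ccnd1, Cdkn2b and the Cdkn2a promoter, were chosen after their values were seen. Over 14 results, 66 other settings were tried as listed at the start and 16 more were chosen after seeing the data.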

Additional observations from a re-analysis of the deposited data

How the results depend on the processing

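Of 82 alternatives over 14 results, 52 left the value within its interval or within 1.5 times its count. No paired analysis was possible because each list merges both replicates, and no replicate could be left out. With the gene body and 10 kb alone, SOX11 peaks fell to 6 at 5 genes and SOX4 peaks to 0 at 0 genes, and the shares of all genes were 50.7% and 10.2%. In the first 50% of each list there were 12 SOX11 peaks at 6 genes, and 1 SOX4 peak at 1 gene; the shares of all genes were 35.5% and 7.1%, and pathway genes with a peak fell to 15 (46.9%) for SOX11, still above that share, and to 2 (6.25%) for SOX4, below it. With no flank the shares of all genes were 49% and 10.9%, with a 25 kb flank 65.7% and 16.8%, and with the nearest start alone 46.8% and 10.2%. The 25 kb flank gave Ccnd2 a SOX11 peak, so that 10 of 10 genes had one. With the nearest start counted only within 100 kb, an alternative chosen after seeing the data, there were 17 SOX11 peaks at 8 genes, and 1 SOX4 peak at 1 gene, and shares of 56.1% and 12.3%.

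The SOX share of the 28 peaks was 32.1% with the longer motif and 1 mismatch and 0% with none (47.3% and 11.3% of the list), and 32.1% within 50 bp of the centre (45.7% of the list). The AP-1 share was 7.14% with the longer motif and no mismatch (11% of the list), and the TEAD share 3.57% with no mismatch (2.52%) and 7.14% within 50 bp (10.4%). Each of these settings asks for a longer match or searches less sequence, but allowing a mismatch also loosens the search. With the longer motif and 1 mismatch the AP-1 share was higher, at 46.4% (41.1% of the list). The TEAD share was then 21.4% (20.3% of the list). Without heights, per-replicate lists or depth, a missing peak cannot be told from one under the caller's threshold, and the nearest start need not be the gene on which a distant peak acts.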
